A study of Homo sapiens with 10 samples.

Results

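The RNAs described here are those whose level in the middle of 3 extracellular vesicle (EV) pellets of PC3 cells lay outside the range set by the slowest and the fastest pellet. Genes were taken as members where the mean level in the 10K pellet was above both or below both of the means in 2.8K and 100K, so that a gene with a steady gradient over the spins is left out. Of 94946 entries in the count table, 28968 had a count in a vesicle library and 12983 were members by their means, 6792 above both and 6191 below both. Of the 15525 genes with enough counts to be tested, 7513 were members (48.4%), 3671 above both and 3842 below both, and the other 8012 were monotonic. Membership alone therefore says little, and the results below concern the members that also passed a test.

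PC3 is a human prostate cancer cell line of epithelial origin that was derived from a bone metastasis. All samples are RNA of this 1 line, the labels name no treatment, and the cells grew in DMEM (Dulbecco's medium) that held fetal bovine serum. The groups are vesicles of the spins that the labels call 2.8K, 10K and 100K, without a unit, with 3 libraries each, here called by the spin alone, and 1 library of whole PC3 cells, which took no part in the tests. Whether the numbered sets were grown apart is not stated, so each p-value is set against a spread over libraries that can be technical.

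When conditioned medium is spun at rising speed, large vesicles and fragments of cells sediment first, medium-sized vesicles next and the smallest vesicles last. Pellets of the middle spin are usually described as rich in vesicles shed from the plasma membrane, and pellets of the fastest spin as rich in small vesicles that include exosomes. Such pellets overlap in content, and free ribonucleoprotein particles can sediment with them. In these pellets a lower share of an RNA and a higher share of the others cannot be told apart, since each level is relative to the rest of its library.

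The vesicle libraries held 5424964 to 14977955 counts each and the cell library 28735081. Levels are given as CPM (counts per 1000000 of the library total, scaled with TMM factors) and differences as log2 fold changes with their standard error (SE). The spread between libraries was wider in 2.8K (biological coefficient of variation 0.931) and 10K (0.736) than in 100K (0.273). All 12 markers of PC3 and epithelial cells had counts, and their summed level was 2949 to 3855 CPM in 2.8K, 2273 to 2815 in 10K and 1146 to 1346 in 100K. Of the androgen-dependent prostate genes, KLK2, KLK3, FOLH1 and ACP3 had no count, and the summed level of the list of 10 was 11.4 to 18.8 CPM in 10K. Of 17 leukocyte genes 11 had no count, PTPRC and CD3D among them, and the sum stayed at or below 8.02 CPM in every vesicle library. The list of 21 blood and serum genes summed to 1.09 to 5.12 CPM per library and the list of 11 fibroblast genes to 19 to 93.4 CPM. Among the fibroblast genes DCN, LUM, FAP and POSTN had no count. Most of the sum was FBLN1, COL1A1 and COL3A1, which had 1123, 320 and 182 counts in the PC3 cell library. The list of 17 neuronal and olfactory genes summed to 588 to 1065 CPM in 10K, and most of this was NEFL, a neurofilament gene with 8934 counts in the PC3 cell library.

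The contrast sets 10K against the equal-weight mean of the other pellets on the log2 scale, so its direction can differ from that of mean CPM. It was tested with the edgeR quasi-likelihood test, Benjamini-Hochberg adjusted over all genes tested, at a threshold of 0.05. By this contrast 173 genes were higher in 10K (1.11% of the genes tested) and 4 were lower (0.0258%). At an unadjusted p under 0.05 these counts were 1291 (8.32%) and 791 (5.1%), and at the adjusted threshold the directions together made up 1.14%. Of the 173 higher genes, 69 were monotonic (0.444%), and 104 had a mean above both other pellets (0.67%). The 4 lower genes were all below both means (0.0258%). A contrast can pass because 10K differs from 1 of the pellets alone, and for a member its direction mostly follows from the choice by means, so each member was also compared with each pellet. By this measure 7 genes were higher in 10K than in 2.8K and than in 100K (0.0451%), and 10 were lower than in each (0.0644%). The comparisons with the pellets taken singly share the 10K libraries. Against 2.8K, 645 genes were higher in 10K (4.15%) and 345 lower (2.22%), and against 100K, 1122 were higher (7.23%) and 575 lower (3.7%).

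**Figure D1:**
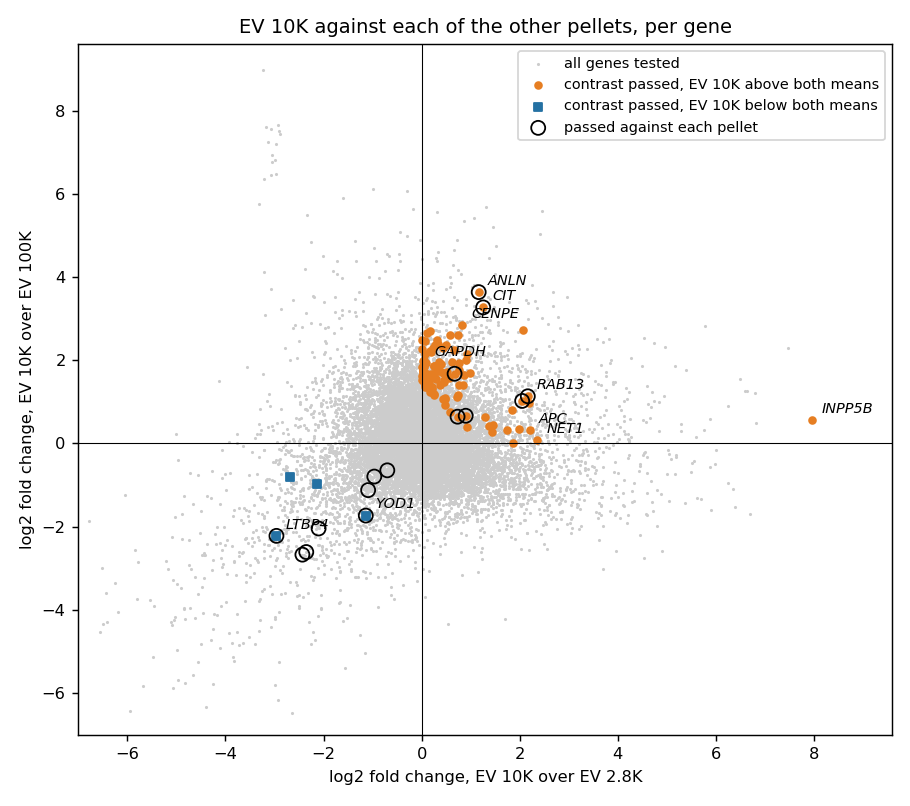
Log2 fold change of 10K over 2.8K (x axis) and over 100K (y axis) for 14910 genes, with 615 genes that had a mean of 0 in a pellet not drawn. Orange points are the 104 genes with a passed contrast and a mean above both pellets, blue squares the 4 below both, and rings mark genes that passed against each pellet. Of the orange points, 84 passed against 100K alone, 13 against 2.8K alone and 7 against both.

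The 104 genes fell into 3 kinds by the pellet they differed from. The largest kind, with 84 genes, passed against 100K and not against 2.8K. Another 13 passed against 2.8K and not against 100K, and 7 passed against both. Passing 1 comparison and not the other does not show that the 2 differences are unequal, which was not tested. Of the 104 genes, 98 are protein-coding and 6 are processed pseudogenes. In 34 of them the 3 10K libraries were above all 6 others, against 255 of all genes tested (1.64%). The choice of the 104 by the same libraries bears on this count, so it is no separate support.

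RAB13 and its pseudogene were the only RNAs whose maximum in 10K passed against both pellets in each alternative fit and without each library. RAB13 encodes a small GTPase of vesicle traffic and cell junctions, and its mRNA belongs to a group that is carried to the tips of cell protrusions, with NET1, KIF1C, TRAK2 and PKP4. In this group a GA-rich stretch of the 3′ UTR is known as the element for transport, in which GAAG repeats occur, and transport depends on the APC protein. RAB13 (chr1:153981617-153986358 on GRCh38, minus strand) and its processed pseudogene AC034102.1 (chr12:55980432-55981035, minus strand) both passed in both comparisons. The 30-base stretches of the 3′ UTR with the most GAAG were searched on the sense strand of 1 transcript per gene in GENCODE release 29, with overlaps counted. They are shown, with GAAG in capitals, for the 3 mRNAs of this group that passed the contrast with a maximum in 10K. Other mRNAs of the group that passed the contrast without a maximum in 10K are not shown.
RAB13, chr1:153981913-153981942, minus strand: gaaaaaaagGAAGagagagGAAGggaGAAG
PKP4, chr2:158680767-158680796, plus strand: gtgaaagtGAAGtgGAAGgaatgaatGAAG
NET1, chr10:5457925-5457954, plus strand: gaaatgcaagaggGAAGgtgattggtagtg
RAB13 and PKP4 held 3 GAAG in such a stretch, which 8.98% of 11988 tested coding transcripts also did, while NET1 held 1, as 84.4% did at the least. Over the whole 3′ UTR, RAB13 held 8 GAAG, PKP4 4 and NET1 4. Of the 98 coding genes with a maximum in 10K, 12 had a stretch with 3 or more (12.2%), close to the share of all coding transcripts.

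The RAB13 level was 610, 606 and 764 CPM in the 2.8K libraries, 3444, 2516 and 2917 in 10K and 1585, 1081 and 1378 in 100K. All 3 10K libraries were above every other library, and 100K lay between. RAB13 was higher in 10K than in 2.8K by 2.16 on the log2 scale (SE 0.20, adjusted p = 3.91e-06) and than in 100K by 1.13 (SE 0.20, adjusted p = 0.000989). Both calls held in all 9 fits that left out 1 library, with a larger adjusted p of at most 0.00685. In the cell library RAB13 stood at 12.9 CPM, against a mean of 3018 CPM in 10K on the same scale. Of its exonic bases, 24.8% are shared with AL358472.6, an annotated gene on the same strand.

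The pseudogene AC034102.1 followed the same order, with 394, 306 and 431 CPM in 2.8K, 1731, 1209 and 1738 in 10K and 791, 708 and 804 in 100K. It was higher in 10K by 2.05 (SE 0.20, adjusted p = 7.07e-06) against 2.8K and by 1.02 (SE 0.20, adjusted p = 0.00224) against 100K. Its 604 bases matched the RAB13 transcript at 98.7%, with 8 mismatches, so that a short read can fit both. The stretch of 120 bases with the most mismatches is shown, with its 5 differing bases in capitals. It spans positions 354 to 473 of the RAB13 transcript and chr12:55980677-55980796 for the pseudogene.
RAB13: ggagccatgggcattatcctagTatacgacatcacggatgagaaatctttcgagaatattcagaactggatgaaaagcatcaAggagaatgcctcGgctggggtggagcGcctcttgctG
AC034102.1: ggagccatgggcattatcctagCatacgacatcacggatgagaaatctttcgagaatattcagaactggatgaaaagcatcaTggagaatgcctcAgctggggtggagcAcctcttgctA
The counting of reads with several matches, not given in the sources used here, could split this pair in any ratio, so the 2 entries are uncertain and not independent. The same holds for the other 5 processed pseudogenes among the 104, which were FTH1P8 (97.5% identical to FTH1), GAPDHP1 (95.9% to GAPDH), PPIAP22 (99.6% to PPIA), RPL32P18 (98.3% to RPL32) and YBX1P1 (97.3% to YBX1).

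NET1, which encodes an exchange factor for RHOA, was nearly level between 10K and 100K. Its level was 3219, 2782 and 3922 CPM in 2.8K, 19178, 14934 and 16832 in 10K and 16587, 14954 and 16413 in 100K. The difference from 2.8K was 2.36 (SE 0.19, adjusted p = 1.55e-06), while that from 100K was 0.09 (SE 0.18, adjusted p = 0.874), and the libraries of these pellets overlapped. Without 10K library 1 the mean of 10K was no longer above that of 100K, although the contrast still passed (adjusted p = 0.00929 at the most over all fits without 1 library). PKP4, a plakophilin of cell junctions, had means of 187 ± 23.1, 506 ± 92.4 and 415 ± 33.2 CPM (SD, n = 3, in the order 2.8K, 10K, 100K), and its contrast of 0.86 (SE 0.16, adjusted p = 0.0149) was lost without 10K library 1 (0.0787) or 3 (0.102). Other mRNAs of the group passed the contrast without a maximum in 10K. The kinesin KIF1C stood at 3660 ± 853, 16425 ± 3424 and 24927 ± 2700 CPM, the motor adaptor TRAK2 at 1576 ± 301, 7719 ± 1173 and 8276 ± 923, and RASSF3 at 641 ± 137, 3710 ± 757 and 7094 ± 998. Of the 17 mRNAs of the list, 7 passed the contrast, where 1.11% of all genes tested passed as higher. Of these 7, 3 had their maximum in 10K (17.6% of the list, against 0.67% of all genes tested). The median contrast of the list was 0.51, against 0.06 for all genes tested.

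APC, whose protein takes part in that transport and in the destruction of beta-catenin, had 145, 142 and 185 CPM in 2.8K, 985, 581 and 612 in 10K and 727, 498 and 517 in 100K. It was higher in 10K than in 2.8K by 2.21 (SE 0.24, adjusted p = 1.62e-05), and its difference from 100K was 0.32 (SE 0.23, adjusted p = 0.473) with overlapping libraries. The APC contrast passed in all 9 fits without 1 library. CTNNB1, which encodes beta-catenin itself, passed in both comparisons. Its level was 273, 269 and 300 CPM in 2.8K, 663, 478 and 430 in 10K and 388, 330 and 272 in 100K, with no overlap between 10K and the rest. The differences were 0.90 (SE 0.21, adjusted p = 0.0119) and 0.67 (SE 0.21, adjusted p = 0.0434). The pair of calls for CTNNB1 was lost without 2.8K library 2 (larger adjusted p 0.0575), 10K library 1 (0.226) or 2 (0.0778), or 100K library 2 (0.134) or 3 (0.256), and its contrast of 0.78 (SE 0.17, adjusted p = 0.0336) in 6 of 9 such fits, up to 0.201 without 10K library 1. With RLE and upper-quartile factors the CTNNB1 pair (0.0703 and 0.0815) and contrast (0.0517 and 0.053) were lost, and with library totals only the contrast (0.0586).

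**Figure D2:**
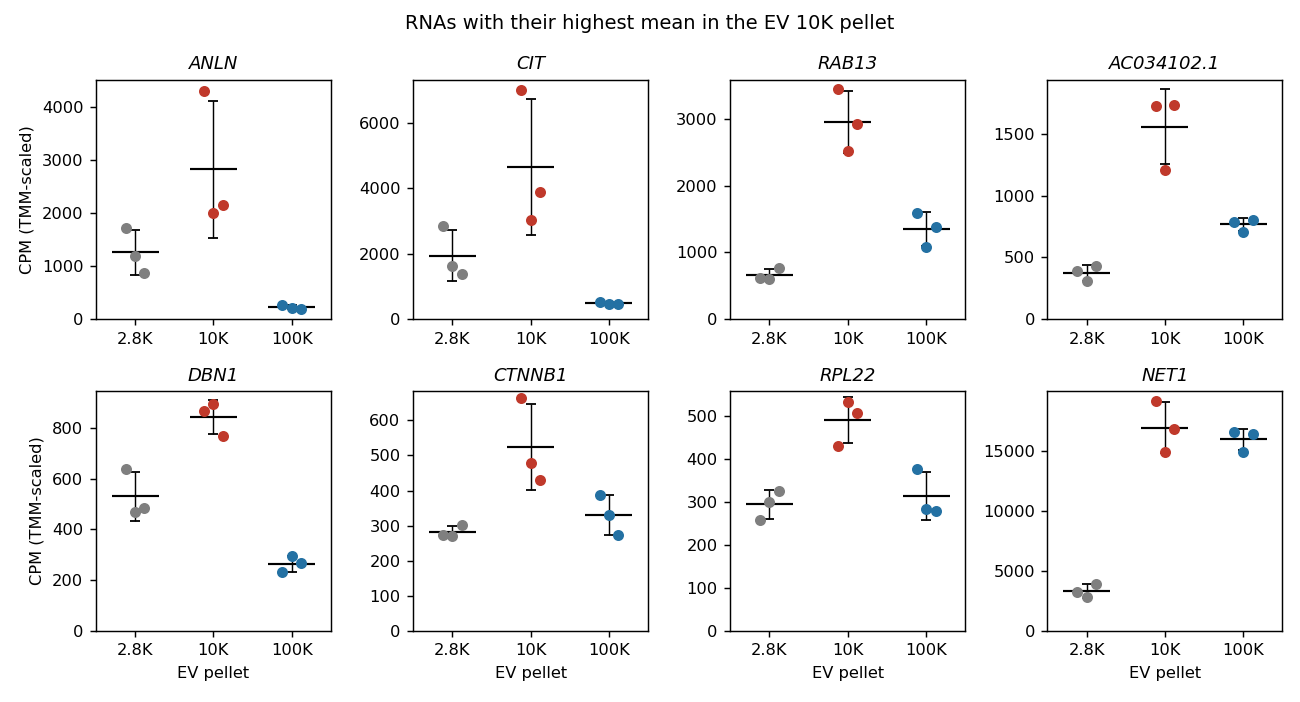
CPM in each vesicle library for the 7 RNAs that were higher in 10K than in each other pellet, and for NET1, with 1 panel per gene and pellets on the x axis. Points are libraries, the horizontal bar is the mean and the error bar the SD (n = 3). ANLN and CIT are near the axis in 100K, RAB13 is lowest in 2.8K, and NET1 is as high in 100K as in 10K.

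ANLN and CIT formed a second pattern, high in 10K, intermediate in 2.8K and low in 100K. ANLN (chr7:36389806-36453791) encodes anillin, the scaffold of the contractile ring that divides the cell, and CIT (chr12:119685790-119877291) encodes citron kinase, which acts at the midbody. ANLN stood at 1717, 1199 and 872 CPM in 2.8K, 4318, 2012 and 2155 in 10K and 274, 216 and 192 in 100K. The difference was 1.16 (SE 0.29, adjusted p = 0.0221) from 2.8K and 3.64 (SE 0.32, adjusted p = 3.14e-06) from 100K. CIT stood at 2839, 1616 and 1371 CPM in 2.8K, 6981, 3027 and 3893 in 10K and 529, 453 and 459 in 100K. Its differences were 1.25 (SE 0.29, adjusted p = 0.016) and 3.27 (SE 0.32, adjusted p = 9.7e-06). For both genes the 10K libraries were above the rest, and library 1 was the highest within each pellet. In the main fit, which has no term for set number, the call against 2.8K rested on few libraries. The pair of calls was lost for ANLN without 10K library 1 (0.146) or 2.8K library 2 (0.0722) or 3 (0.0589), and for CIT without 10K library 1 (0.0984) or 2.8K library 2 (0.066). With a term for set number and all 9 libraries, the adjusted p against 2.8K was 0.000104 for ANLN and 9.2e-05 for CIT. The contrasts, 2.40 for ANLN and 2.26 for CIT (SE 0.24 each, adjusted p = 0.000133 and 0.00023), passed in all fits without 1 library. In the cell library ANLN was at 204 CPM and CIT at 143 CPM, against 10K means of 2883 and 4723 CPM on that scale.

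Other genes of mitosis were tested from a list of 48 that held ANLN but not CIT. Of these, 3 passed the contrast with a maximum in 10K (6.25%, against 0.67% of all genes tested), which were ANLN, CENPE and CDK1. A mean above both pellets was found in 11 (22.9%, against 23.6%), a mean below both in 5 (10.4%, against 24.7%) and a monotonic order in 32. CENPE, a kinesin of the kinetochore, had 291, 218 and 163 CPM in 2.8K, 576, 284 and 327 in 10K and 60.6, 48.0 and 55.9 in 100K. It passed against 100K (2.85, SE 0.28, adjusted p = 7.29e-06) and not against 2.8K (0.82, SE 0.26, adjusted p = 0.0755). With a term for set number in the fit, CENPE passed against 2.8K too (adjusted p = 0.0203). CDK1, the kinase that drives entry into mitosis, had means of 121 ± 50, 205 ± 14.7 and 77.7 ± 1.95 CPM (SD, n = 3), and its contrast of 1.08 (SE 0.22, adjusted p = 0.0216) was lost without 10K library 1 (0.0634), 2 (0.102) or 3 (0.102) and with library totals as the only scaling (0.0699). CDCA2, a chromatin-bound regulator of phosphatase in mitosis outside the list, had means of 82.4 ± 28.3, 148 ± 25.7 and 55.9 ± 4.25 CPM and a contrast of 1.12 (SE 0.22, adjusted p = 0.0162), which was lost without 10K library 1 (0.0867), 2 (0.0801) or 3 (0.0619). Most members did not share this shape. CENPF (877 ± 161, 1541 ± 585 and 1030 ± 243 CPM), INCENP (374 ± 197, 571 ± 147 and 256 ± 46.5 CPM) and UBE2C (62.5 ± 24.3, 103 ± 26.8 and 62.9 ± 6.75 CPM) had the highest mean in 10K without passing the contrast, with adjusted p = 0.124, 0.0998 and 0.195. The median contrast of the list was 0.15.

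DBN1 and RPL22 completed the genes that passed against both pellets. DBN1 encodes drebrin, which binds and bundles actin filaments. Its level was 640, 467 and 483 CPM in 2.8K, 868, 896 and 770 in 10K and 233, 294 and 267 in 100K. The differences were 0.67 (SE 0.19, adjusted p = 0.0399) and 1.68 (SE 0.19, adjusted p = 2.17e-05). RPL22 encodes a protein of the large ribosomal subunit and stood at 258, 301 and 325 CPM, then 429, 532 and 505, then 377, 283 and 279. Its differences were 0.73 (SE 0.19, adjusted p = 0.0285) and 0.64 (SE 0.19, adjusted p = 0.0377). For both genes the 10K libraries were above all others, and both pairs of calls depended on single libraries. That of DBN1 was lost without 2.8K library 2 (0.102) or 3 (0.0723), 10K library 1 (0.114) or 2 (0.0935) or 100K library 2 (0.0573) or 3 (0.0654). That of RPL22 was lost without 2.8K library 2 (0.0519), 10K library 2 (0.154) or 3 (0.131) or 100K library 2 (0.188) or 3 (0.214), and its contrast of 0.69 (SE 0.16, adjusted p = 0.0474) in 6 of 9 fits, up to 0.194 without 10K library 3. The pair and the contrast of RPL22 were also lost with RLE factors (0.0618 and 0.0665), upper-quartile factors (0.0767 and 0.0748) and library totals only (0.0932 and 0.103), and the pair of DBN1 with library totals only (0.0639). IQGAP2, a scaffold that binds actin regulators, had a contrast of 2.39 (SE 0.50, adjusted p = 0.0247), from 2.71, 8.16 and 12.8 CPM in 2.8K, 54.0, 14.7 and 30.4 in 10K and 4.51, 5.05 and 5.45 in 100K. This contrast was lost without 10K library 1 (0.229) or 3 (0.109) or 100K library 1 (0.0506). Its relative IQGAP1 had means of 448 ± 113, 532 ± 103 and 147 ± 15 CPM and a contrast of 1.05 (SE 0.18, adjusted p = 0.00783), which was lost without 10K library 1 (0.0565).

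The 84 genes that differed from 100K alone included many short mRNAs. The median transcript length of the 79 coding genes among them was 1432 bases, against 3179 for all coding genes tested, and 41 were under 1500 bases (51.9%, against 13.5%). The 13 genes that passed against 2.8K alone had a median of 2660 bases and the 6 coding genes that passed against both 2914. The 69 monotonic genes that passed the contrast were short too, with a median of 1249 bases over the 59 coding genes, and 11 of the 69 are mitochondrially encoded. The 84 genes also had a high level, with a median of 160 CPM in 10K against 16.1 for all genes tested. The lengths were not compared at a matched level. Counts are not scaled by length, and a length effect shared by all genes of a library was not tested.

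**Figure D3:**
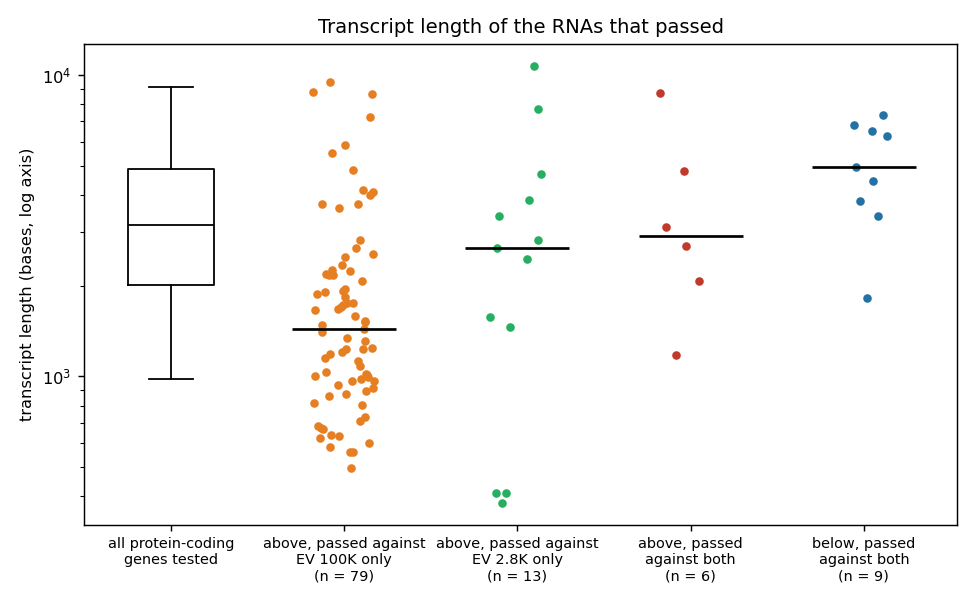
Transcript length in bases (log axis) of 1 transcript per protein-coding gene, for all genes tested (box with the median and quartiles, whiskers at the 5th and 95th percentile) and for single genes in 4 sets. Points are genes and bars are medians. The set that passed against 100K alone has the shortest transcripts, with a median of 1432 bases, and the set below both pellets a median of 4948 bases.

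GAPDH, the glycolytic enzyme often used as a reference gene, shows this shape. It had 2218, 2237 and 2424 CPM in 2.8K, 1966, 2671 and 2634 in 10K and 497, 781 and 637 in 100K. 10K and 2.8K overlapped and differed by 0.08 (SE 0.20, adjusted p = 0.89), while 100K was lower by 1.93 on the log2 scale (SE 0.20, adjusted p = 1.25e-05). ALDOA and ENO1, which act in the same pathway, also passed the contrast with a maximum in 10K. So 3 of 20 tested genes of glycolysis did (15%, against 0.67% of all genes tested), with a median contrast of 0.40. Of the exonic bases of ALDOA, 53.5% are shared with AC093512.2 or AC093512.1. TMSB4X, which encodes the actin-binding peptide thymosin beta 4, had means of 254 ± 57.9, 305 ± 63.9 and 59.0 ± 9.76 CPM, and MIF, a cytokine, 127 ± 18.8, 144 ± 34.9 and 22.1 ± 6.99. Both contrasts, 1.32 (SE 0.19, adjusted p = 0.00381) and 1.44 (SE 0.22, adjusted p = 0.00536), held in all fits without 1 library, but 61.9% of the exonic bases of MIF are shared with MIF-AS1 or AP000350.4. The contrast of GAPDH was lost without 10K library 3 (0.0679), those of ALDOA and ENO1 without 10K library 2 (0.0808 and 0.0613) or 3 (0.109 and 0.123). With library totals as the only scaling GAPDH and ENO1 no longer had their maximum in 10K, and without 2.8K library 1 or 10K library 3 neither did ENO1.

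Subunits of the respiratory chain encoded in the nucleus gave the highest number of such genes of any list, though not the highest share (9.21%, against 17.6% of the protrusion list, 15.4% of the ferritin, redox and S100 list and 15% of glycolysis). Of 76 tested, 38 had a mean above both pellets (50%, against 23.6% of all genes tested) and 2 a mean below both (2.63%, against 24.7%). The contrast was passed with a maximum in 10K by 7 (9.21%, against 0.67%), which were NDUFV3, NDUFA12, NDUFS4, NDUFA3, COX6B1, COX7C and ATP5PD. The first 4 belong to complex I, the COX genes to complex IV and ATP5PD to the ATP synthase. The summed level of the list was 10617 to 11256 CPM in the 10K libraries, above all 2.8K (8851 to 9349) and 100K libraries (7680 to 9262), and the median contrast was 0.55. NDUFA12 had 19.9, 30.6 and 39.0 CPM in 2.8K, 60.3, 50.5 and 56.1 in 10K and 13.4, 15.5 and 12.3 in 100K, without overlap. NDUFA12 passed against 100K (2.02, SE 0.35, adjusted p = 0.00102) and not against 2.8K (0.90, SE 0.34, adjusted p = 0.132). NDUFV3 went the other way, with 200, 181 and 196 CPM in 2.8K, 677, 504 and 744 in 10K and 541, 414 and 588 in 100K. It passed against 2.8K (1.74, SE 0.20, adjusted p = 3.27e-05) and not against 100K (0.32, SE 0.20, adjusted p = 0.387). Without 10K library 3 the contrasts of all 7 were lost, with adjusted p from 0.0707 for NDUFV3 to 0.24 for ATP5PD. Without 10K library 2 the others except NDUFV3 were lost, from 0.0571 for NDUFA12 to 0.199 for COX6B1. Without 10K library 1, NDUFA12 (0.073), NDUFA3 (0.0988), COX7C (0.0539) and ATP5PD (0.0648) were lost. Left-out 2.8K or 100K libraries ended further calls of NDUFS4, NDUFA3, COX6B1, COX7C and ATP5PD. Of 9 fits without 1 library NDUFS4 and NDUFA12 were called in 6, COX6B1 in 4, COX7C in 3, NDUFA3 in 2 and ATP5PD in 1. With RLE factors the contrasts of COX6B1 (0.0549), NDUFA3 (0.057), COX7C (0.0658) and ATP5PD (0.0601) were lost. The same genes were lost with upper-quartile factors, and with library totals only, where NDUFS4 (0.0571) was lost too. The 15 mitochondrially encoded RNAs, by comparison, were all monotonic, though 11 of them passed the contrast as higher on its log2 scale. MT-CO1 stood at 12290 ± 8806, 1562 ± 279 and 10.5 ± 2.65 CPM.

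Proteins of the mitochondrial ribosome had a like distribution by means, with 41 of 76 above both pellets (53.9%, against 23.6% of all genes tested) and 1 below both. Only MRPL57 passed the contrast (1.32%, against 0.67%). Their summed level was 4709 to 4861 CPM in 10K, above 2.8K (3620 to 4035) and 100K (3514 to 4042), with a median contrast of 0.49. The 10K sums of this list and of the respiratory chain no longer lay above all others when library totals were the only scaling. The tubulin list summed to 4197 to 4430 CPM in 10K, 3147 to 3246 in 2.8K and 3060 to 3818 in 100K. The 10K sums lay above all others under each scaling, while those of 2.8K and 100K overlapped, and only TUBB of the 13 genes passed the contrast. Proteins of the cytosolic ribosome had 46 of 79 means above both pellets (58.2%) and 2 below, and RPL22 and RPS4X passed with a maximum in 10K (2.53%, against 0.67%). RPS4X had means of 952 ± 91.7, 1418 ± 212 and 846 ± 67.3 CPM, and RACK1, a protein of the small subunit outside the list, 892 ± 100, 1213 ± 119 and 578 ± 26.6. Both had 10K libraries above all others and passed against 100K (adjusted p = 0.0106 and 0.000616) but not against 2.8K (0.0666 and 0.15). With a term for set number in the fit, RPS4X passed against 2.8K too (adjusted p = 0.026), while RACK1 did not (0.0732). The ferritin heavy chain FTH1, which stores iron, had means of 2817 ± 563, 3530 ± 1128 and 1057 ± 84.2 CPM with overlapping 2.8K and 10K libraries. It was 1 of 4 genes that passed with a maximum in 10K among 26 of the ferritin, redox and S100 list, with S100A10, S100A13 and PRDX6. Of the exonic bases of FTH1, 62.4% lie across from BEST1 exons, and of those of S100A13, 33.5% are shared with AL162258.1 or S100A1. Without 10K library 3 the contrasts of MRPL57 (0.223), TUBB (0.194), RPS4X (0.143), RACK1 (0.109), FTH1 (0.0732), S100A10 (0.078) and PRDX6 (0.148) were lost. Without 10K library 2 those of MRPL57 (0.0749), RPS4X (0.199), RACK1 (0.0852), FTH1 (0.0949) and PRDX6 (0.122) were lost as well. Of the 9 fits without 1 library, MRPL57, RPS4X and S100A13 were called in only 2 and PRDX6 in 4, with 2.8K and 100K libraries among those whose loss ended the call.

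**Figure D4:**
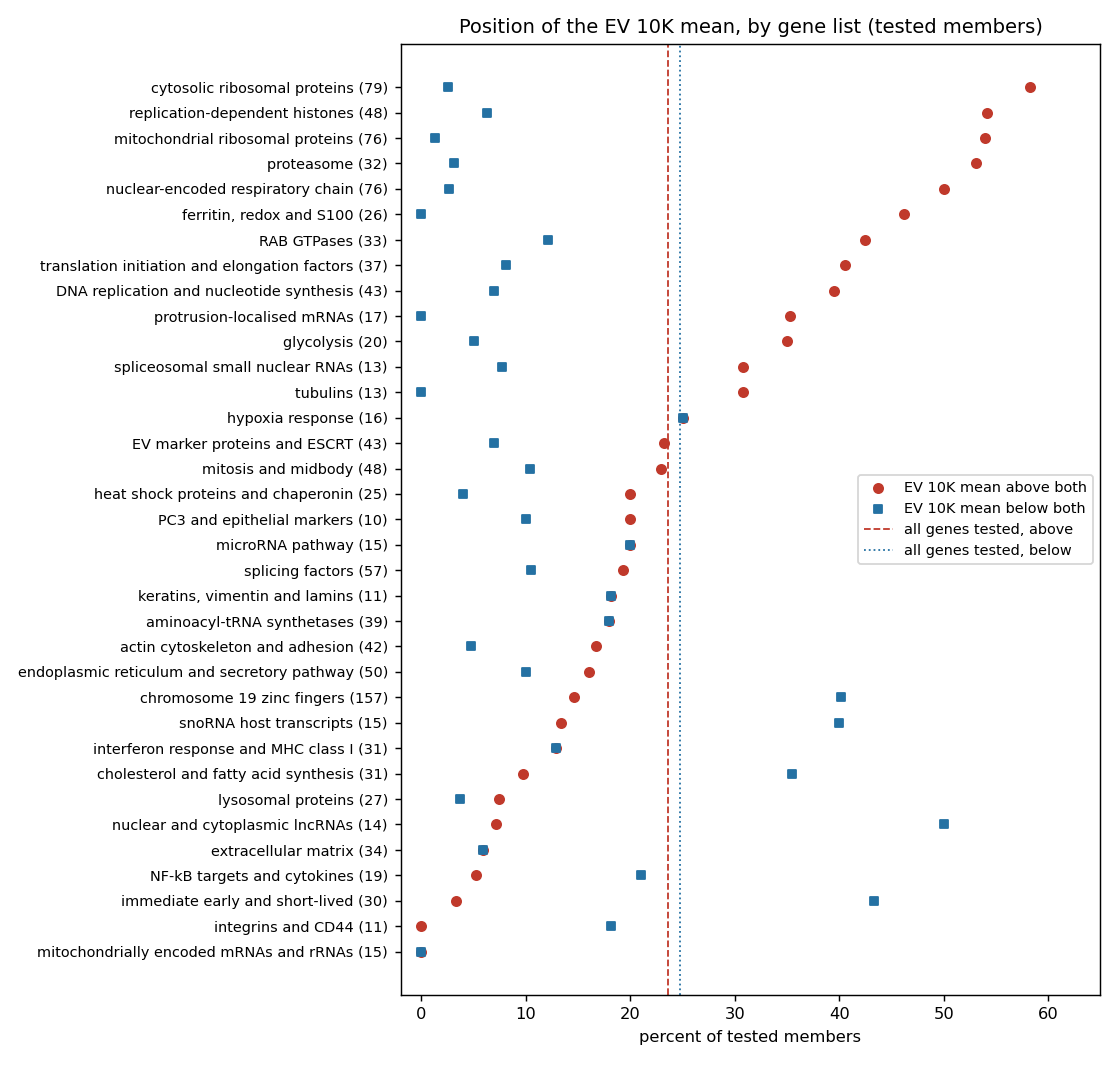
Percent of the tested members of each gene list whose 10K mean lay above both (red circles) or below both other pellets (blue squares), for lists with 10 or more tested genes (number in brackets), with all genes tested as vertical lines (23.6% above and 24.7% below). Cytosolic ribosomal proteins reach 58.2% above, and the zinc fingers of chromosome 19 40.1% below.

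The 13 genes that differed from 2.8K alone included histones. H3C2 had 62.9, 69.4 and 89.0 CPM in 2.8K, 217, 204 and 189 in 10K and 153, 167 and 126 in 100K, without overlap. It passed against 2.8K (1.46, SE 0.22, adjusted p = 0.000314) and not against 100K (0.45, SE 0.21, adjusted p = 0.209). H2BC3 had means of 25.2 ± 6.05, 89.9 ± 33.6 and 51.4 ± 5.05 CPM and H3C3 105 ± 29.2, 274 ± 46.7 and 205 ± 40.0. Histone mRNAs that are made with DNA replication lack a poly(A) tail. Of 48 tested, 26 had a mean above both pellets (54.2%, against 23.6% of all genes tested) and 3 a mean below both (6.25%, against 24.7%). Their median contrast was 0.56, and 3 passed with a maximum in 10K (6.25%, against 0.67%). In the cell library these 3 histones were higher than in 10K, at 383, 134 and 470 CPM. The contrasts of all 3 were lost without 10K library 1 (0.0636 for H3C2, 0.134 for H2BC3 and 0.0747 for H3C3) and without 10K library 3 (0.0665, 0.0754 and 0.102). H3C2 (0.0571) and H3C3 (0.176) were lost without 10K library 2 too, and H3C3 without 100K library 1 (0.0652) or 3 (0.083). Histone genes are near-identical copies whose counts are uncertain.

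The other genes of this kind were INPP5B, PINK1, PLEKHN1, CENPB, PLCXD3 and ANP32B, beside NET1, PKP4, APC and NDUFV3. PLCXD3 stood at 305, 375 and 622 CPM in 2.8K, 1719, 1248 and 2158 in 10K and 1374, 1030 and 1609 in 100K. CENPB, a protein that binds centromeric DNA, had 1151, 611 and 829 CPM, then 2374, 1390 and 2611, then 1218, 1201 and 1665. With a term for set number in the fit, CENPB passed against 100K too (adjusted p = 0.03). ANP32B, a histone chaperone, was level between 10K and 100K (2495 ± 323 and 2459 ± 545 CPM) and lower in 2.8K (689 ± 103 CPM). INPP5B, a phosphatase of inositol lipids, was close to absent from 2.8K, with 2 counts over the 3 libraries against 378 in 10K and 183 in 100K. The pooled ratio of 10K to 2.8K was 283 (95% interval 77.9 to 2349, counting error only), and the INPP5B contrast was lost without 10K library 2 (0.114) and with limma voom (0.121). PINK1, a kinase that marks damaged mitochondria, had means of 199 ± 21.8, 376 ± 28.5 and 285 ± 28.5 CPM with 10K above all other libraries, but its contrast (0.66, SE 0.16, adjusted p = 0.0474) held in only 1 of 9 fits without 1 library, with adjusted p up to 0.223, and 41.7% of its exonic bases are shared, mostly with PINK1-AS. The contrasts of PLCXD3 (0.0636 and 0.12), CENPB (0.146 and 0.223), PLEKHN1 (0.117 and 0.22) and ANP32B (0.0636 and 0.0665) were lost without 10K library 1 or 3. CENPB was also lost without 2.8K library 2 (0.0603) or 100K library 1 (0.0652) or 2 (0.0693), and PLEKHN1 without 2.8K library 2 (0.0514) or 100K library 1 (0.0675), 2 (0.0623) or 3 (0.0716). The mean of ANP32B was no longer above 100K without 10K library 1 or 100K library 2 or 3, or with RLE or upper-quartile scaling.

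Fewer genes passed the contrast with a minimum in 10K than with a maximum, although 10 against 7 passed against each pellet. LTBP4 (chr19:40592883-40629818), which encodes a matrix protein that binds latent TGF-beta, was the 1 gene whose minimum passed against both pellets in each alternative fit and without each library. Its level was 34.2, 46.9 and 20 CPM in 2.8K, 4.51, 2.72 and 5.68 in 10K and 20.7, 23.6 and 16.2 in 100K, so that no 10K library came near the others. The log2 difference of 10K was -2.96 from 2.8K (SE 0.50, adjusted p = 0.00108) and -2.22 from 100K (SE 0.49, adjusted p = 0.00566). Both LTBP4 calls held in all fits without 1 library, with a larger adjusted p of at most 0.0327, while the contrast of -2.59 (SE 0.46, adjusted p = 0.0106) was lost without 10K library 2 (0.0662) or 3 (0.06) and with limma voom (0.0641).

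YOD1, a deubiquitinase of protein quality control, was the other gene that passed the contrast and both comparisons. It had 59.4, 51.1 and 44.8 CPM in 2.8K, 26.6, 30.9 and 13.1 in 10K and 91.8, 72.9 and 69.7 in 100K. The differences were -1.14 (SE 0.32, adjusted p = 0.0417) and -1.73 (SE 0.33, adjusted p = 0.00185). The YOD1 contrast of -1.44 (SE 0.29, adjusted p = 0.0235) was lost without 10K library 1 (0.0626) or 3 (0.134) or 100K library 1 (0.0556), and the pair of calls in 7 of 9 such fits, with the larger adjusted p up to 0.179. KCNQ1OT1, a long antisense RNA that silences genes of its imprinted locus, had 63.6, 79.3 and 55.4 CPM in 2.8K, 7.47, 11 and 12.2 in 10K and 20.4, 21.1 and 12.6 in 100K. It passed against 2.8K (-2.69, SE 0.37, adjusted p = 0.000168) and not against 100K (-0.82, SE 0.36, adjusted p = 0.179). The pseudogene HERC2P2 had means of 60.5 ± 23.1, 13.7 ± 2.90 and 26.8 ± 8.66 CPM and likewise passed only against 2.8K (adjusted p = 0.00235, against 0.128 for 100K), and reads of it and of its parent gene may be shared. Both contrasts were lost without 10K library 1 (0.0678 and 0.0824), 2 (0.074 and 0.134) or 3 (0.078 and 0.225), and that of HERC2P2 also without 2.8K library 2 (0.0798) or 100K library 1 (0.0925), 2 (0.0525) or 3 (0.0532). With limma voom both missed the threshold (0.0523 and 0.0835).

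**Figure D5:**
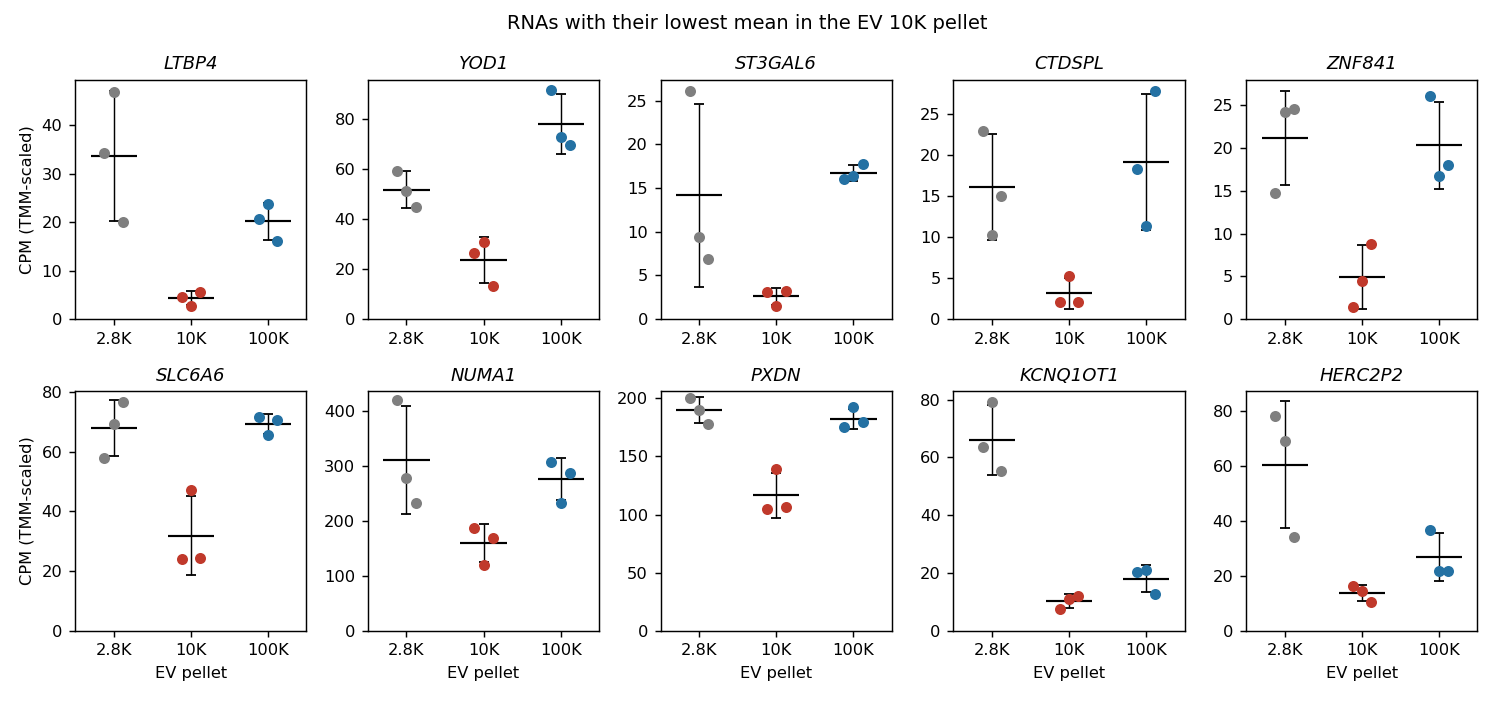
CPM in each vesicle library for 8 RNAs that were lower in 10K than in each other pellet and for KCNQ1OT1 and HERC2P2, drawn as points with the mean (bar) and SD (error bar, n = 3). In each panel the libraries of 10K lie below all 6 others, as they do for 250 of all genes tested (1.61%). The choice of these RNAs by the same libraries bears on this order.

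The other 8 genes below each pellet did not pass the contrast, which had adjusted p from 0.0515 to 0.0827. ST3GAL6, a sialyltransferase, was at 3.08, 1.49 and 3.26 CPM in 10K, against 6.92 to 26.2 in 2.8K and 16 to 17.7 in 100K. CTDSPL, a phosphatase, was at 2.09, 5.32 and 2.05 CPM, against 10.2 to 23.0 and 11.4 to 27.9, and the zinc finger gene ZNF841 at 1.43, 4.46 and 8.84, against 14.8 to 24.5 and 16.8 to 26.1. SLC6A6, the taurine transporter, had means of 67.8 ± 9.37, 31.9 ± 13.2 and 69.2 ± 3.28 CPM. NUMA1, which anchors the poles of the mitotic spindle, had 311 ± 98.3, 159 ± 34.7 and 276 ± 38.4, and PXDN, a peroxidase of basement membranes, 190 ± 11.2, 117 ± 19.3 and 182 ± 8.70. Of the exonic bases of NUMA1, 24.9% are shared with genes on the opposite strand. AMH, a hormone of the TGF-beta family, had no count in 10K, with 480 counts in 2.8K, of which library 1 gave the most (28.1, 1.36 and 7.18 CPM), and 28 in 100K. Against a floor of 3 counts over the 10K group, AMH was at least 114-fold higher in 2.8K and at least 13.5-fold higher in 100K. The catalogue entry lnc-CTAGE5-8 also had no count in 10K and was at least 39.2-fold and 32.0-fold higher in the other pellets by the same floor. Each of these 8 pairs of calls was lost without some single library, with the larger adjusted p up to 0.107 for AMH, 0.119 for lnc-CTAGE5-8, 0.122 for CTDSPL, 0.144 for ST3GAL6, 0.17 for SLC6A6, 0.172 for ZNF841, 0.19 for PXDN and 0.197 for NUMA1. The 9 coding genes below both had a median transcript length of 4948 bases.

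Lists with many members below both pellets held few calls. Of 157 zinc finger genes of chromosome 19, which encode transcriptional repressors, 63 had a mean below both (40.1%) and 23 above both, with a median contrast of -0.14, and ZNF841 was the only one lower than in each pellet. Of 30 immediate early and short-lived mRNAs, 13 had a mean below both (43.3%, against 24.7% of all genes tested) and 1 above both (median contrast -0.36), and none passed. Targets of NF-kB and cytokines summed to 528 to 585 CPM in 10K, below 2.8K (952 to 1121) and 100K (739 to 842) under each scaling, with no single call. This low sum was not the order of most members. Of 19 tested, 4 had a mean below both (21.1%, against 24.7% of all genes tested), 1 above both, and 14 were monotonic. The median log2 difference of 10K from 100K over this list was 0.62. The nuclear RNAs NEAT1 (639 ± 424, 109 ± 13.6 and 135 ± 10.9 CPM) and MALAT1 (3451 ± 1806, 1367 ± 305 and 2016 ± 858 CPM) had their lowest mean in 10K without passing the contrast (adjusted p = 0.105 and 0.221), and in both genes 2.8K library 1 stood far below the other 2.8K libraries.

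CD9, CD63 and CD81 encode tetraspanins and were monotonic, at 83.9 ± 12.8, 58.3 ± 26.3 and 6.26 ± 0.554 CPM for CD9, 204 ± 45.8, 244 ± 52.6 and 293 ± 19.3 for CD63, and 131 ± 23.0, 75.2 ± 14.9 and 33.6 ± 15.1 for CD81. Of 43 genes of this list and the ESCRT machinery, 10 had a mean above both (23.3%) and 3 below both (6.98%), where all genes tested gave 23.6% and 24.7%. None of these passed, where the share over all genes tested was 0.67%. In all, 37 of the 104 genes with a maximum belonged to 1 of the 41 lists and 67 to none. The order of means is thin for some of the 104. Just inside, TECR had means of 43.0, 43.1 and 7.67 CPM and PRDX6 266, 267 and 93.1, and just outside, DYNLL1 had 205.48, 205.45 and 73.6 and NDUFB10 202, 199 and 65.7.

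Set beside the single library of whole cells, which gives no replicate check, the 10K mean was higher for 89 of the 104 genes with a maximum and for all 7 that passed against both pellets, where the median log2 ratio was 3.81. The 2.8K mean was above the cell library for 79 of the 104 and 6 of the 7 as well. Of the 10 genes below both pellets, none was above the cell library in 10K and 6 were in 2.8K. The choice of members by their 10K mean bears on these counts. Over all genes tested, 10K was above the cell library in 7480 of 15525 and 2.8K in 7590. Of the 104 genes, 50 share at least 1 exonic base with another annotated gene and 14 share 20% or more, and since the strand setting was not given in the sources used here, reads of such partners may be mixed.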

How the data were processed

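The authors deposited 1 table of read counts per gene for 9 vesicle libraries and 1 library of whole PC3 cells, in whole numbers that were not normalized. Per the labels' protocols, total RNA came from a Trizol extraction and a stranded kit for low input gave the libraries. Per the submitters' processing notes, the tools include STAR 2.6.1d, featureCounts 1.6.3, cutadapt 2.7 and bcl2fastq 2.19.1.403, and the build GRCh38. The strand setting and the treatment of multiple hits were not given in the sources used here. Groups come from the sample titles. Gene names, transcripts and positions come from GENCODE release 29 on GRCh38 and newer symbols from RefSeq, and catalogue entries of long noncoding RNA have no positions here.

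The 9 vesicle libraries were fitted with edgeR 4.0.16, run in R 4.3.3 (TMM factors, genes kept by filterByExpr on the groups at a minimum count of 10, robust quasi-likelihood F-test, no term for set number, 6 residual and 11.7 prior degrees of freedom). Adjusted p-values are Benjamini-Hochberg values over 15525 genes. The SE is the log2 fold change divided by the square root of F. CPM means decide membership, and lists are given by counts and medians without a test. Alternatives used DESeq2 1.42.0, limma 3.58.1, other scalings and filters, and each library left out. Pseudogenes were matched with blastn 2.17.0, and figures drawn with matplotlib 3.10.9. The script was tested on simulated counts. Of 100 genes changed 2-fold in 10K, the contrast recovered 21 and the pair of comparisons 11. Of 100 changed 4-fold, these numbers were 68 and 54. Among 14442 genes tested there, 4 unchanged ones were called. Many changes of these sizes can therefore be missed. Reads are not independent molecules, so an interval or floor holds for counting error alone. No library was a copy of another within sampling noise.

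The members, lists and rule were chosen with earlier results of these data known. Named genes are the 10 with the highest and 10 with the lowest contrast among members that passed with at least 10 CPM, the 10 per direction with the largest smaller difference among those that passed against both pellets, up to 3 members of each list that passed and 8 fixed names, and the text gives a part. Other genes named were chosen after their values were seen.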

Additional observations from a re-analysis of the deposited data

How the results depend on the processing

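Above both pellets, against 104 genes by the contrast and 7 that passed against each pellet, the counts were 177 and 12 with no filter beyond 1 count, 193 and 13 with DESeq2, 190 and 11 with limma voom with sample weights, and 197 and 13 with all 10 libraries in the fit. They were 65 and 5 with RLE factors, 68 and 5 with upper-quartile factors and 39 and 5 with library totals only. Below both pellets, against 4 and 10, they were 46 and 16 with no filter, 155 and 69 with DESeq2, 17 and 4 with voom, and 56 and 22 with all 10 libraries. Voom with pellet weights, chosen after seeing the data, gave 8 and 3 below, and pairwise fits on their own 6 libraries, also chosen then, gave 2 below. The cause of these shifts was not tested.

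Leaving out 1 library each gave 14 to 253 above and 0 to 87 below by the contrast, and 3 to 15 above and 1 to 30 below against each pellet. The highest values came without EV 2.8K replicate 1 and the lowest without EV 10K replicate 3 (14 and 0), EV 10K replicate 1 (3) and EV 100K replicate 1 (1). Of the 104 genes, 9 were called in all 9 such fits and 35 in the other 11 fits, and 81 kept the maximum in all 4 other scalings. Of the 4 below, 0 and 1 were.

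With the replicate block, a term for set number, the counts were 167 and 22 by the contrast and 17 and 11 against each pellet. CENPE, CDK1 and CDCA2 then passed against both pellets (larger adjusted p 0.0203, 0.0452 and 0.0403). The pairs of ST3GAL6 (0.0624), CTDSPL (0.0583) and lnc-CTAGE5-8 (0.0655) were lost. The main fit does not pair libraries by set number. Same-numbered libraries correlated at -0.0091 to 0.048 over 9 pairs, yet 8 of 9 libraries were closest to their own number. A spread that follows the set therefore stays in the error of the main fit.

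The CD63 contrast, at 0 within its error, changed sign without mitochondrial genes and the most abundant entry (0.0089) and with all 10 libraries (0.0023), and ranged from -0.12 to 0.16 without 1 library.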
